A study of Mus musculus with 36 samples.

Results

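The genes examined were the collagens, laminins and further matrix proteins of the basement membrane in differentiating Xmas mouse embryonic stem cells (mESCs). They were chosen by name and chromosome from the deposited expression table: every collagen chain, every laminin chain, Fn1, Sparc, Nid1, Nid2, Hspg2 and Agrn on chromosomes 1 to 19. This gave 58 of the 25965 genes in the table, with 41 collagen genes, 11 laminin genes and 6 others. Col4a5 and Col4a6 lie on the X chromosome and were left out, which removed 2 genes.

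Xmas mESCs are female C57/Bl6 lines in which GFP and mCherry reporters were knocked into Hprt on opposite X chromosomes. The study reports that cells showing only GFP or only mCherry carried only the matching reporter allele. Whether all libraries share the genotype with both reporters was not tested. Cells were expanded in suspension in 2i and LIF, plated on gelatin, and weaned into a serum medium without LIF called DME HiHi. RNA was taken from whole cultures on each of 9 days, day 0 to day 8, with 4 libraries a day and 36 in all. Day 0 is the culture expanded in 2i, and the samples of days 1 to 8 differ from it by the time since weaning began. Each day has 1 library from line X14 labelled double (replicate 1), 1 from X14 labelled single (replicate 2), 1 from X18 labelled double (replicate 3) and 1 from X18 labelled single (replicate 4). The labels do not explain double and single, and the words are used here as names only. The study describes the libraries of a day as independent replicates. The p-values rest on the spread between libraries of the same day, pooled over all 9 days unless stated otherwise. The same lines and labels recur on every day, and a fit with day as the only factor does not model this pairing.

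Basement membranes are thin matrix sheets on which epithelial cells rest. A laminin is a trimer of an alpha, a beta and a gamma chain, and laminins assemble on the cell surface through integrin and dystroglycan receptors. Type IV collagen forms a second network, nidogens and the heparan sulfate proteoglycans perlecan (Hspg2) and agrin (Agrn) join both, and fibrillar collagens make the fibres of connective tissue outside the sheet. In the early mouse embryo, laminin built from the chains Lama1, Lamb1 and Lamc1 precedes that built with Lama5. Serum-driven differentiation of mESCs is known to yield endoderm that secretes such a matrix.

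A library held between 612740 and 2445826 reads in genes, with a median of 1297944, and 3 reads corresponded to 1.04 to 3.9 RPM (reads of a gene scaled to the depth of the library). Levels between genes are given per length, as RPKM (RPM scaled to the exon length of the gene), and a difference between days as a log2 fold change with its standard error (SE). In 17 of 18 pairs of libraries from the same day and line, X-linked genes relative to autosomal genes were higher in the library labelled double, by 0.39 to 1.43 on the log2 scale. The exception was X14 on day 0, where the library labelled double was lower by a difference of -1.29, so that this pair went against the order of its labels on the other days. Among the 22 members that reached a day mean of 10 RPM on some day and had a read on day 0, the library labelled X14 double was the highest of the 4 in 13. On day 1 the library labelled X14 single was the highest in 16 of 23, and on day 5 the shallowest library, X14 double, was the lowest in 20 of 25.

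The daily sampling asks how expression moves as cells leave the naive state. The members together took 2737 ± 1745 RPM (SD, n = 4) on day 0. Their sum was 2375 ± 297 RPM by day 4, then 4842 ± 468 by day 6, and 4159 ± 1129 at the end of the series. The lowest day 0 library had 1257 RPM and the highest, labelled X14 double, 5220 RPM, so the day 0 range covered the mean of every later day, day 6 included.

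Of the 58 members, 43 passed a filter of at least 1 RPM in at least 4 of the 36 libraries and were tested with limma among 14612 genes. A gene was called when its adjusted p was under 0.05 and its log2 fold change at least 1 either way. On day 2, 5 of the 43 (11.6%) were called higher than on day 0, where 2.09% of all genes tested were, and 0 were called lower, where 0.876% of all genes were. An unadjusted p under 0.05 was found for 11 members, but the share of all genes under it was not computed. Day 4 had 6 members higher (14%, against 12.2% of all genes) and 4 lower (9.3%, against 6.4%). On day 6, 21 were higher (48.8%, against 22.4%) and 4 lower (9.3%, against 11%). By day 8, 25 were higher (58.1%, against 23.9%) and 3 lower (6.98%, against 11.1%). Between day 4 and day 8, 20 were higher on day 8 (46.5%, against 15.7%) and 2 lower (4.65%, against 9.01%). Over all 9 days 37 members changed at an adjusted p under 0.05 (86.0%, against 65.2%).

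All comparisons with day 0 share its 4 libraries, and these counts are descriptions. A member that is silent early passes the filter only through the late days on which it has reads, and 12 of the 25 members called higher on day 8 had no read in any day 0 library. With a stricter filter, a mean of at least 10 RPM over all libraries, 19 members were tested and 12 were called on day 8, 9 higher and 3 lower. The share of all genes called under this filter is not given here, so whether these counts exceed it cannot be read from them. On day 2 the count rested on single libraries. It was 0 without replicate 3 or 4, whether on day 0 alone or throughout, 3 without replicate 2, 11 without day 0 replicate 1, 12 without replicate 1 throughout, 1 with voom on the recovered reads and 0 when only the libraries of both days were fitted. The median log2 fold change on day 8 was 1.39 over the 43 members and 0.23 over all genes tested. It was 0.55 over the members when those without reads on day 0 were set to a lower bound against 3 reads per library. Under quantile normalization the median of all genes on day 8 was -0.09 and that of the members 0.93. Of the 14612 genes tested, 2432 were then called higher and 2393 lower, and of the 43 members 20 were higher and 4 lower. Among all genes called, 50.4% were higher under this normalization, against 68.1% as deposited.

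**Figure D1:**
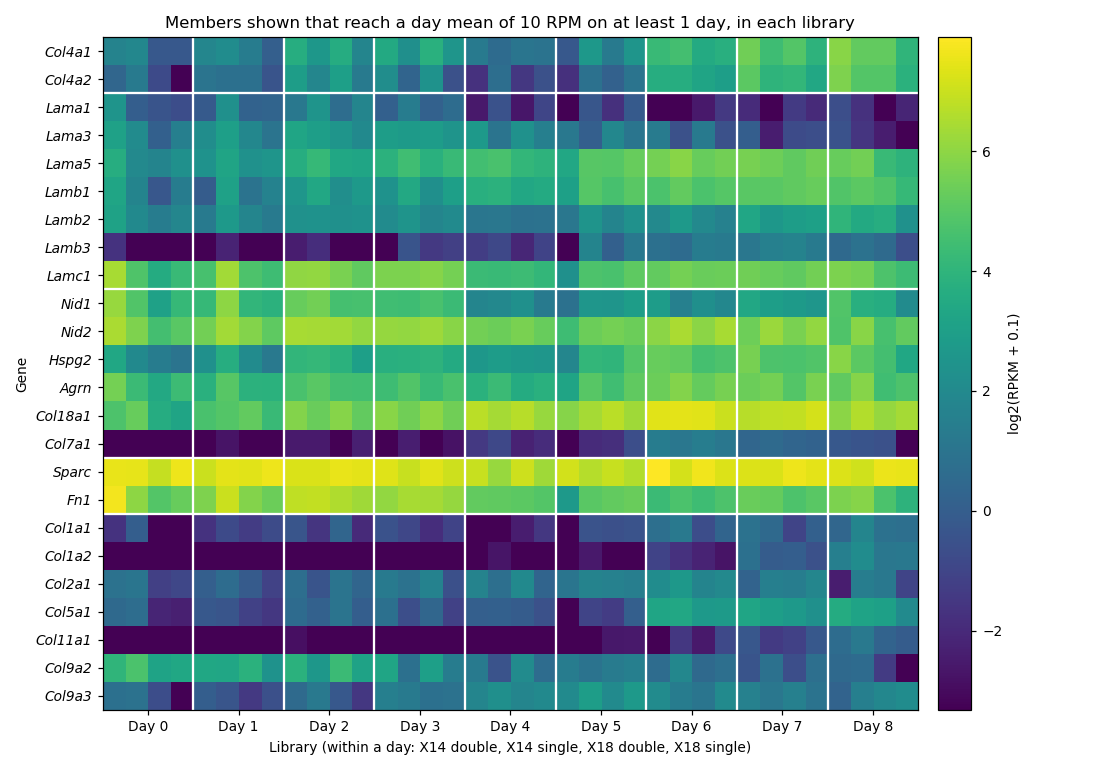
Level of 24 members that reached a day mean of 10 RPM on at least 1 day, as log2(RPKM + 0.1), in each of the 36 libraries ordered by day and, within a day, by replicate 1 to 4. Rows run from type IV collagen through laminin chains, other basement membrane genes with Col18a1 and Col7a1, Sparc and Fn1 to the remaining collagens. Sparc is bright on every day, while Col1a2 and Col11a1 have at most 2 reads in any library before day 6.

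Type IV collagen, the network-forming collagen of basement membranes, was called higher on days 2, 6 and 8. Its alpha 1 chain Col4a1 stood at 3.12, 3.53, 0.754 and 0.751 RPKM in the 4 libraries of day 0 (replicates 1 to 4, the order used throughout). On day 2 the libraries had 12.7, 6.04, 12.4 and 3.35 RPKM, on day 4 they had 2.37, 1.42, 1.98 and 1.81, and on day 8 they had 59.2, 36.8, 36.8 and 16.1. The day 8 values lay above all values of day 0 and day 4, while day 4 and day 0 overlapped. The log2 fold change was 2.25 (SE 0.59, adjusted p = 0.0268) on day 2, 0.24 (SE 0.59, adjusted p = 0.816) on day 4 and 4.41 (SE 0.59, adjusted p = 2.03e-07) on day 8.

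The alpha 2 chain Col4a2, the partner in the same trimer, had 1.19, 2.31, 0.466 and 0 RPKM on day 0. It had 7.45, 3.41, 7.96 and 2.403 on day 2, 0.203, 1.56, 0.255 and 0.593 on day 4, and 53.8, 29.9, 29.4 and 14.2 on day 8. Its course had the same shape, with all day 8 values above those of days 0 and 4. Its log2 fold change was 2.92 (SE 0.77, adjusted p = 0.0278) on day 2 and 5.53 (SE 0.77, adjusted p = 4.46e-07) on day 8. From day 4 to day 8 it was 5.93 (SE 0.77, adjusted p = 2.57e-07), and 4.18 (SE 0.59, adjusted p = 1.15e-06) for Col4a1. The day 2 calls of both genes were lost without replicate 3 or 4 throughout, without day 0 replicate 3 (adjusted p = 0.183 for Col4a1 and 0.134 for Col4a2) or day 0 replicate 4 (0.136 and 0.169), in the fit of both days alone (0.23 and 0.229) and with voom on the recovered reads (0.0759 and 0.0569). Their calls on days 6 and 8 held under every alternative run. In RPKM the Col4a1 to Col4a2 ratio within a library was 1.61 ± 0.17 (SD, n = 4) on day 2, with 1.58 ± 0.27 for day 6 and 1.18 ± 0.07 for day 8, the remaining days but day 7 having under 10 reads of a chain in some library. Col4a3 had 1 read in all libraries together, and Col4a4 had 0.

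Col4a1 and Col4a2 lie head to head on chromosome 8 of mm10, Col4a1 at chr8:11198423-11312826 on the minus strand and Col4a2 at chr8:11312805-11449287 on the plus strand, so that the lines of the table overlap by 22 bases at their starts. Windows of 300 bases around the annotated start were taken from RefSeq (GRCm38, the assembly of mm10), in which 42 of the 58 members have an entry. The windows of this pair are shown because both genes moved together, and those of Lama5 and Lamb1 because these chains were called higher from day 4 on. Each runs 5′ to 3′ on the strand of its gene, and capitals mark GGGCGG (GC box) and CCAAT motifs on either strand.

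Col4a1: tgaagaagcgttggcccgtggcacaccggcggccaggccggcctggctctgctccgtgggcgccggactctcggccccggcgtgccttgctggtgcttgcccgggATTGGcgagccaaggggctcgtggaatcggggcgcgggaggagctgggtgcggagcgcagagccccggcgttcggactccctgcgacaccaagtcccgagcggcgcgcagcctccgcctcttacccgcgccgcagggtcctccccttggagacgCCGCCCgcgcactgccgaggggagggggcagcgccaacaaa
Col4a2: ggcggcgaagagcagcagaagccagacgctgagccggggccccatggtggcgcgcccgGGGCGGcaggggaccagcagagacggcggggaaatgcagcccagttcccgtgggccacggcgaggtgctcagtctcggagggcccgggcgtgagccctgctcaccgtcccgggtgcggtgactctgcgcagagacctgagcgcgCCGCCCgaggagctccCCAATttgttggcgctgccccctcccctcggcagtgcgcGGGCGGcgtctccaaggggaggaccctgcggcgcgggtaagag
Lama5: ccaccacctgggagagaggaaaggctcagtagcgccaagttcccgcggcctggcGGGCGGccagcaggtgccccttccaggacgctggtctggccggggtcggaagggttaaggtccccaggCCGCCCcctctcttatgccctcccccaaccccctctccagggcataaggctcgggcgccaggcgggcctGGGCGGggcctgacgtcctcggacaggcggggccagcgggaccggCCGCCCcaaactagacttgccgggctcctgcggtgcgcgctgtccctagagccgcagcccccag
Lamb1: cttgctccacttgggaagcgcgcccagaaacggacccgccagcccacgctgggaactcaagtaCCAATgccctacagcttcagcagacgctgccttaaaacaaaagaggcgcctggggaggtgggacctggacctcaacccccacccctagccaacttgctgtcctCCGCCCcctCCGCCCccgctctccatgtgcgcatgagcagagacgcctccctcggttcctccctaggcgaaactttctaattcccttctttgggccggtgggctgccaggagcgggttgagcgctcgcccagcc

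The Col4a1 window (chr8:11312777-11313076) and the Col4a2 window (chr8:11312555-11312854) share 78 bases, read on opposite strands. That of Lama5 is chr2:180225810-180226109 on the minus strand and that of Lamb1 chr12:31265043-31265342 on the plus strand. GGGCGG was found at 1, 3, 4 and 2 places in the windows of Col4a1, Col4a2, Lama5 and Lamb1, and CCAAT at 1, 1, 0 and 1. TATAAA was also searched on both strands and occurs in none of the 4, and the motifs share no letters with one another here. Of all 32851 RefSeq windows of this length, 35.7% held GGGCGG, 37.4% CCAAT and 13.6% TATAAA. These matches describe the letters of the windows only.

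Among laminin alpha chains, Lama5 rose while Lama1 and Lama3 fell. Lama5, the alpha chain of most later basement membranes, had 12.8, 3.78, 3.25 and 4.87 RPKM on day 0. It had 22.7, 25.6, 17.4 and 15.2 on day 4, 47.4, 60.4, 38.7 and 45.3 on day 6, and 39.7, 46.0, 19.3 and 15.4 on day 8. All values of these 3 days exceeded the highest of day 0, and its log2 fold change was 1.91 (SE 0.37, adjusted p = 0.000212) on day 4, 3.17 (SE 0.37, adjusted p = 2.57e-08) on day 6 and 2.37 (SE 0.37, adjusted p = 3.4e-06) on day 8. On day 2 it was 1.22 (SE 0.37, adjusted p = 0.0506), and Lama5 was called on that day with the replicate block (adjusted p = 0.0273), without day 0 replicate 1 (adjusted p = 0.00205) and in 3 other fits.

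Lama1, the alpha chain of the earliest embryonic laminin, had 5.44, 0.924, 0.648 and 0.538 RPKM on day 0. On day 2 it had 2.14, 5.55, 1.51 and 3.34, on day 4 0.0706, 0.612, 0.0592 and 0.412, and on day 8 0.545, 0.204, 0 and 0.125. Day 0 overlapped with day 4 and with day 8 through 1 library of each. Its log2 fold change was -2.68 (SE 0.78, adjusted p = 0.0111) on day 4, -3.46 (SE 0.78, adjusted p = 0.000602) on day 6 and -2.65 (SE 0.78, adjusted p = 0.00619) on day 8. The day 4 call was lost without day 0 replicate 1 (-1.93, adjusted p = 0.0527), without replicate 1 (adjusted p = 0.148) or 3 (adjusted p = 0.0917) throughout and in the fit of both days alone (adjusted p = 0.0724), while those of days 6 and 8 were kept in each of these.

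Lama3, which pairs with Lamb3 in the laminin of epithelial anchoring sites, was highest on days 2 and 3 (6.75 ± 2.5 and 6.75 ± 0.83 RPKM, SD, n = 4). It was at 4.08 ± 3.16 on day 0 and at 0.230 ± 0.266 on day 8, with a log2 fold change of -4.06 (SE 0.68, adjusted p = 9.77e-06). On day 6 it was not called (-1.39, adjusted p = 0.0946), but it was called lower on that day without day 0 replicate 3 (-1.94, adjusted p = 0.0306), without replicate 3 throughout (0.0354) and under quantile normalization (0.0133). Its partner Lamb3 rose, from 0.053 ± 0.106 RPKM at day 0 to 1.26 ± 0.52 at day 8 (log2 fold change 2.80, SE 0.56, adjusted p = 0.000118). Lama3 shares 197 exon bases with an antisense transcript in GENCODE M21. Lama4, with a mean of at most 2.79 RPM on any day, was called on day 6 (log2 fold change 1.68), a call lost without replicate 2 (adjusted p = 0.145), and Lama2 had 4 reads in all libraries.

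Lamb1, the beta chain shared by the laminins of Lama1 and Lama5, had 9.66, 3.27, 0.725 and 2.496 RPKM on day 0. It had 13.3, 14.9, 10.6 and 11.6 on day 4 and 29.1, 33.2, 27.9 and 18.2 on day 8, both entirely above day 0. Its log2 fold change was 2.18 (SE 0.53, adjusted p = 0.00249) on day 4 and 3.27 (SE 0.53, adjusted p = 6.36e-06) on day 8. The day 4 call was lost without replicate 3 throughout (1.62, adjusted p = 0.0737). The day 2 value (1.26, adjusted p = 0.144) was called without day 0 replicate 1 (1.86, adjusted p = 0.00947) or replicate 1 throughout (1.91, adjusted p = 0.00728). Lamb2, a beta chain of muscle and kidney basement membranes, stood at 4.66 ± 2.76 RPKM (SD, n = 4) at day 0, passed 1.90 ± 0.18 at day 4 and reached 11.3 ± 4.7 at day 8. It was called lower on day 4 (-1.14, SE 0.37, adjusted p = 0.0215) and higher on day 8 (1.32, SE 0.37, adjusted p = 0.00381). The day 4 call of Lamb2 was lost without day 0 replicate 1 (-0.78, adjusted p = 0.0947), without replicate 1 (0.102), 3 (0.0664) or 4 (0.0621) throughout and in the fit of both days alone (0.101). Its day 8 call was lost without replicate 3 (0.99, adjusted p = 0.113) and under quantile normalization (0.93, adjusted p = 0.0152).

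Lamc1, the gamma chain common to most laminins, was not called on any of the days compared with day 0. It had 85.3, 28.2, 11.9 and 19.7 RPKM on day 0, 20.1, 19.2, 20.6 and 17.01 on day 4, and 51.0, 46.3, 26.9 and 20.9 on day 8. The range of day 0 covered all values of days 4 and 8, and the log2 fold change on day 8 was 0.31 (SE 0.46, adjusted p = 0.616). Without day 0 replicate 1 Lamc1 was called higher on day 2 (adjusted p = 0.0136) and day 6 (1.13, adjusted p = 0.0306). The Lamb1 to Lamc1 ratio within a library was 0.0867 ± 0.0471 (SD, n = 4) on day 1 and 0.142 ± 0.062 at day 3, then 0.658 ± 0.106 at day 4 and 1.18 ± 0.34 at day 5. Day 8 had 0.799 ± 0.201, and every library of days 4 to 8 lay above every library of days 1 to 3. The Lama1 to Lama5 ratio was 0.272 ± 0.168 on day 1 and 0.0829 ± 0.0213 on day 3, the last day with 10 reads of Lama1 in each library.

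**Figure D2:**
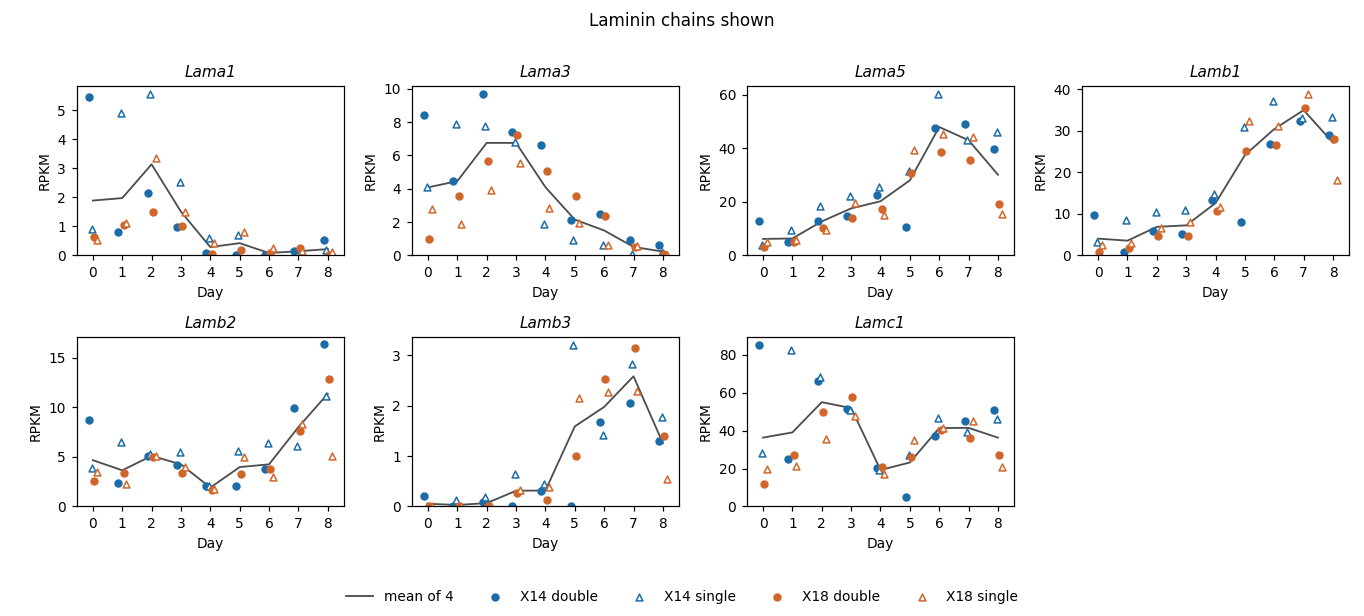
RPKM (linear axis from 0) of 7 laminin chains that reached a day mean of 10 RPM, by day, with 1 point per library and a line through the mean of 4. Circles are libraries labelled double and triangles those labelled single, blue for X14 and orange for X18. Lama5 and Lamb1 are high late, Lama1 and Lama3 early.

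Nidogens link laminin to type IV collagen, and the 2 genes took different courses. Nid1 had 72.5, 29.2, 8.499 and 18.2 RPKM on day 0, 3.33, 3.64, 4.94 and 2.32 on day 4 and 29.0, 13.5, 12.2 and 4.13 on day 8. The day 4 values lay below all of day 0, and those of day 8 overlapped both days. Its log2 fold change was -2.80 (SE 0.52, adjusted p = 0.000131) on day 4, -2.47 (SE 0.52, adjusted p = 0.000294) on day 6 and -1.01 (SE 0.52, adjusted p = 0.112) on day 8, with 1.79 (SE 0.52, adjusted p = 0.00786) from day 4 to day 8. The day 8 value was called without day 0 replicate 3 (-1.51, adjusted p = 0.0219) and under quantile normalization (-1.24, adjusted p = 0.0354).

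Nid2 had 88.9, 53.5, 23.4 and 32.7 RPKM on day 0, 45.5, 41.7, 50.7 and 39.6 on day 4, and 27.7, 59.8, 24.8 and 37.0 on day 8. These ranges overlapped, and its log2 fold change was 0.02 (SE 0.30, adjusted p = 0.969) on day 4 and -0.31 (SE 0.30, adjusted p = 0.416) on day 8. It was called higher on day 2 (adjusted p = 0.00443) and day 6 (1.09, adjusted p = 0.00227) when day 0 replicate 1 was left out. The Nid1 to Nid2 ratio within a library was 0.571 ± 0.186 (SD, n = 4) on day 0, with 0.0791 ± 0.0169 for day 4 and 0.469 ± 0.417 for day 8. Nid2 shares 437 exon bases with the antisense gene Rtraf and Nid1 143 with another antisense gene, and whether the authors' counting used strand is not given in the sources used here.

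Perlecan and agrin are the large heparan sulfate proteoglycans of the sheet. Hspg2 had 10.3, 3.88, 2.51 and 1.91 RPKM on day 0, 6.01, 7.37, 6.26 and 5.92 on day 4 and 59.1, 33.9, 23.3 and 10.1 on day 8. Day 0 overlapped with days 4 and 8 only through its replicate 1 library. The log2 fold change was 1.87 (SE 0.52, adjusted p = 0.0351) on day 2, 0.77 (SE 0.52, adjusted p = 0.283) on day 4 and 2.81 (SE 0.52, adjusted p = 3.99e-05) on day 8. The day 4 value was called without replicate 1 throughout (1.29, adjusted p = 0.0286). The day 2 call was lost without day 0 replicate 3 (adjusted p = 0.194) or 4 (0.167), without replicate 2 (0.133), 3 or 4 throughout, in the fit of both days alone (0.202), with voom (0.0602), with no filter (0.0587) and under each other scaling (0.0537 and 0.0584). Agrn had 46.7, 19.8, 11.02 and 20.4 RPKM on day 0, 14.5, 19.9, 11.9 and 13.8 on day 4 and 35.4, 57.9, 21.9 and 27 on day 8. It was called higher on day 6 (1.10, SE 0.36, adjusted p = 0.0123) but not on day 8 (0.64, SE 0.36, adjusted p = 0.144). The day 6 call was lost without day 0 replicate 3 (0.79, adjusted p = 0.0896) or without replicate 2, 3 or 4 throughout (adjusted p from 0.0571 to 0.114), and without day 0 replicate 1 the day 8 value was called (1.01, adjusted p = 0.0154).

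Col18a1 encodes a collagen with heparan sulfate chains whose end fragment is endostatin, and it was the highest collagen by day mean in RPKM on every day, with Col9a2 above it in day 0 replicate 4. It had 26.9, 38.9, 12.4 and 9.36 RPKM on day 0, 108, 84.2, 104 and 71.1 on day 4, and 61.5, 98.3, 69.9 and 85.1 on day 8. All libraries of days 4, 6 and 8 lay above those of day 0, and the mean peaked at 161 ± 22 (SD, n = 4) on day 6. Its log2 fold change was 1.34 (SE 0.29, adjusted p = 0.00778) on day 2, 2.28 (SE 0.29, adjusted p = 2.62e-07) on day 4, 3.09 (SE 0.29, adjusted p = 2.15e-10) on day 6 and 2.05 (SE 0.29, adjusted p = 5.12e-07) on day 8. The day 2 call was lost without day 0 replicate 3 (1.14, adjusted p = 0.0731) or 4 (1.01, adjusted p = 0.0692), without replicate 3 or 4 throughout and in the fit of both days alone (adjusted p = 0.246). The other multiplexin gene, Col15a1, had 0 reads.

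Sparc, a collagen-binding protein of embryonic matrix, was the highest member by day mean in RPKM on every day, although Fn1 exceeded it in day 0 replicate 1 and Col18a1 in replicate 2 of days 4 and 6. It had 187, 178, 122 and 195 RPKM on day 0, 124, 72.6, 131 and 79.9 on day 4 and 157, 136, 193 and 184 on day 8. Its log2 fold change on day 4 was -0.77 (SE 0.20, adjusted p = 0.00435), short of the minimum of 1, and on day 8 it was -0.01 (SE 0.20, adjusted p = 0.961). Without replicate 3 throughout, the day 4 value was called (-1.06, adjusted p = 0.00213). Fibronectin (Fn1), a cell-adhesive glycoprotein that binds collagen and integrins, had 206, 63.3, 30.2 and 38.9 RPKM on day 0, 36.5, 35.9, 33.5 and 29.7 on day 4 and 51.5, 58.2, 26.6 and 15.03 on day 8. The days overlapped, and 3 values of days 4 and 8 lay below the lowest of day 0. Fn1 was called lower on day 6 (-1.41, SE 0.46, adjusted p = 0.0136) and not on day 8 (-0.92, SE 0.46, adjusted p = 0.103). Without day 0 replicate 1 the day 6 call was lost (-0.84, adjusted p = 0.104) and Fn1 was called higher on day 2 (1.25, adjusted p = 0.0331). Without day 0 replicate 3 it was called lower on day 8 (-1.27, adjusted p = 0.0353). Fn1 shares 292 exon bases with a gene on the other strand.

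**Figure D3:**
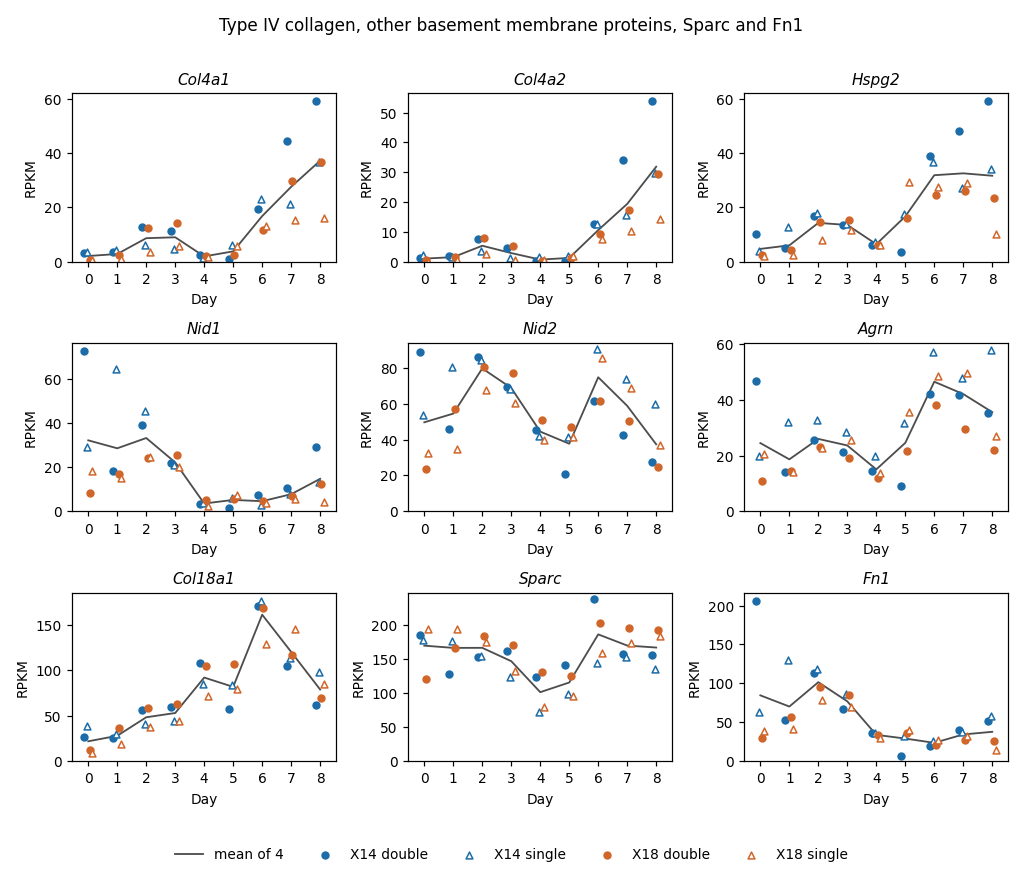
RPKM (linear axes from 0, scaled per gene) by day of type IV collagen chains, perlecan, nidogens, agrin, Col18a1, Sparc and Fn1. Points are the 4 libraries of a day, circles for double, triangles for single, blue for X14, orange for X18, and the line is their mean. Col4a1 and Col4a2 have a low hump on days 2 and 3 and are high from day 6 on. Hspg2 has such a hump too, is above its day 2 mean by day 5 and stays near 32 RPKM from day 6 to day 8, and the replicate 1 library of day 0 stands high for Nid1, Nid2, Agrn and Fn1.

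Fibrillar collagens, the fibre-forming types, were mostly called late. Of the 11 genes 9 were tested, and 1 (Col5a3) was called higher on day 2, 0 on day 4, 7 higher on day 6 (against 22.4% of all genes tested) and 6 higher on day 8 (against 23.9%), with 0 lower. Called on day 6 without a read on day 0 were Col1a2, Col5a2 and Col11a1, which passed the filter only through later days. Their day 6 means were 2.248, 2.097 and 1.874 RPM, where 3 reads per day 0 library are 2.105 RPM. On day 8 Col5a2 was at least 1.11-fold above those 3 reads and Col11a2 below them. The day 6 count was 4 without replicate 2, where Col1a2, Col5a2 and Col11a1 were not called (adjusted p = 0.1, 0.135 and 0.293). The group median log2 fold change on day 8 was 1.92 as fitted and 0.99 with the 4 genes without a day 0 read at their lower bound. The day 2 call of Col5a3 (2.42, SE 0.66, adjusted p = 0.0316) was lost without day 0 replicate 2, 3 or 4 (adjusted p of 0.0538, 0.169 and 0.0852), and its day 6 call (1.99) without day 0 replicate 3 (0.051), without replicate 3 throughout (0.135) and under quantile normalization (0.0633). Col5a1, which nucleates type I fibres, was the highest of them on day 8. It had 1.31, 1.53, 0.121 and 0.101 RPKM on day 0, 0.95, 0.991, 0.862 and 0.594 on day 4 and 12.1, 9.16, 8.20 and 4.06 on day 8. Every day 8 library exceeded every library of days 0 and 4, and its log2 fold change was 4.30 (SE 0.66, adjusted p = 2.54e-06). Between day 5 (0.406 ± 0.393 RPKM, SD, n = 4) and day 6 (8.41 ± 1.97) the libraries did not overlap. On day 2 Col5a1 was not called (1.68, adjusted p = 0.12), but it was called without day 0 replicate 1 (adjusted p = 0.0152) or 2 (0.032) and without replicate 1 throughout (0.034). It shares 212 exon bases with antisense genes.

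Type I collagen is a trimer of Col1a1 and Col1a2 chains. Col1a2 had 0 reads on days 0 to 3, at most 1 read in a library on days 4 and 5, 1 to 8 reads on day 6 and 22 to 108 on day 8. Its day 8 mean of 34.4 ± 12.6 RPM (SD, n = 4) was at least 16.3-fold higher than 3 reads per day 0 library. Col1a1 had 0.282 ± 0.435 RPKM (SD, n = 4) at day 0, then 0.0855 ± 0.121 at day 4 and 1.97 ± 0.94 at day 8 (log2 fold change 2.94, SE 0.65, adjusted p = 0.000387). Col11a1, a minor fibrillar chain of cartilage, had 0 reads in all day 0 libraries and 7 to 44 on day 8, at least 6.43-fold higher. Its day 6 call (1.23, adjusted p = 0.0369) was lost without day 0 replicate 1 (0.09) or 2 (0.102), without replicate 2 or 4 (0.243) throughout, with no filter (0.0501), in the fit of both days alone (0.148) and under quantile normalization (0.0918). That of Col1a2 on day 6 was also lost without replicate 1 (0.103). Col2a1, the major cartilage collagen, was called only on day 6 (2.33, SE 0.73, adjusted p = 0.0103), a call lost without day 0 replicate 3 (adjusted p = 0.0564) or without replicate 3 (0.0836) or 4 (0.0689) throughout, and on day 8 its log2 fold change was -0.34 (SE 0.73, adjusted p = 0.737). Col3a1, a collagen of loose connective tissue, had a day mean of 0.616 RPM at most and was not tested.

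Collagens associated with fibrils (FACIT) split. Col9a2, a chain of type IX collagen, had 16.1, 26.6, 8.97 and 10.2 RPKM on day 0, 2.39, 0.627, 4.18 and 1.45 on day 4 and 1.34, 1.41, 0.281 and 0 on day 8. All values of both later days lay below day 0, and its log2 fold change was -3.02 (SE 0.59, adjusted p = 0.000261) on day 4 and -4.43 (SE 0.59, adjusted p = 2.46e-07) on day 8. Col9a3, another type IX chain, was called higher, from 1 ± 0.88 RPKM on day 0 to 3.83 ± 0.65 on day 4 (2.33, SE 0.57, adjusted p = 0.00271). Its day 6 call (2.004) was lost without day 0 replicate 4 (1.37, adjusted p = 0.0503) or replicate 4 throughout (1.23, adjusted p = 0.0949). Its day 8 call (1.79, SE 0.57, adjusted p = 0.0105) was lost without day 0 replicate 4 (1.16, adjusted p = 0.0933), without replicate 3 (0.121) or 4 (0.2) throughout, in the fit of both days alone (0.0777) and under quantile normalization (1.30, adjusted p = 0.0705). Col9a3 shares 234 exon bases with the antisense gene Tcfl5, and Col9a1 had 1 read in all.

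Col7a1, which forms the anchoring fibrils beneath epithelial basement membranes, had no read on day 0 in any library. Its values were 0.263, 0.444, 0.1104 and 0.165 RPKM on day 4, 2.55, 2.06, 2.64 and 2.06 on day 6 and 0.763, 0.666, 0.597 and 0 on day 8. Day 6 stood above all other days, and its mean of 23.8 ± 3.2 RPM (SD, n = 4) was at least 11.3-fold higher than 3 reads per day 0 library. The day 4 call of Col7a1 was lost without replicate 2 (adjusted p = 0.121). Of the beaded filament collagens, Col6a1 and Col6a2 were called higher on days 6 and 8 and Col6a5 on day 4, none reaching a day mean of 10 RPM. Col6a2 and Col6a5 had no read in any day 0 library. The day 6 mean of Col6a2 was at least 1.41-fold higher than 3 reads per day 0 library. The log2 fold change of Col6a1 on day 8 was 3.72 (SE 0.49, with 1 read in all day 0 libraries).

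**Figure D4:**
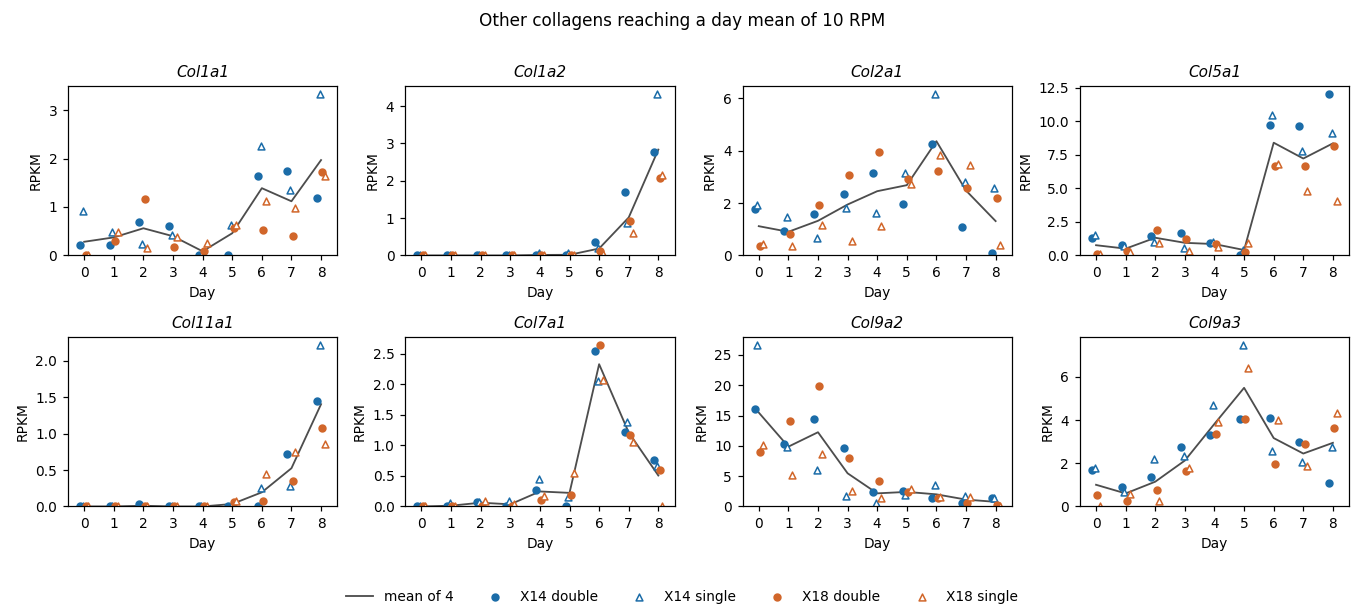
RPKM (linear axes from 0, scaled per gene) by day of the 8 other collagens that reached a day mean of 10 RPM. Points are libraries, circles for double, triangles for single, blue for X14, orange for X18, and the line joins the means of 4. Col5a1 is high from day 6 to day 8, Col1a2 and Col11a1 are highest on day 8, Col7a1 peaks on day 6 and Col9a2 is highest on day 0.

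Below a day mean of 10 RPM on every day were 18 of the 43 members tested, and 10 of them were called higher on day 8: Col5a2, Col11a2, Col12a1, Col16a1, Col6a1, Col6a2, Col8a1, Col8a2, Col23a1 and Lamc3. Of these 10, all but Col6a1 had no read in any day 0 library and passed the filter only through later days. Against 3 reads per day 0 library (2.105 RPM), the day 8 mean was at least 2.73-fold higher for Col16a1. It was at least 1.66-fold higher for Col23a1, 1.46-fold for Col6a2, 1.36-fold for Col12a1 and 1.11-fold for Col5a2. The day 8 means of Col11a2, Col8a1, Col8a2 and Lamc3 lay below those 3 reads. The calls of Col11a2, Col8a2 and Lamc3 were lost without day 0 replicate 1 or 2 (adjusted p from 0.0588 to 0.0895), in the fit of both days alone (0.0755 to 0.126) and under quantile normalization (0.0935 to 0.141). They were also lost without 2 or more of the replicates in turn, and that of Col11a2 with log2(RPM + 1), where its fold change was 0.96. The call of Col8a1 was lost without replicate 2 (0.0809). Of the 15 members not tested, 13 had at most 3 reads in any library. The 13 were Col9a1, Col14a1, Col24a1, Col25a1, Col4a3, Col6a3, Col6a6 and Lama2, with 1 to 8 reads in all, and Col19a1, Col4a4, Col15a1, Col28a1 and Col10a1, with 0. The others, Col3a1 and Col13a1, stayed below 1 RPM in mean on every day. At this depth 3 reads in a library allow up to 3.9 RPM, so low expression of these genes was not detectable.

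**Figure D5:**
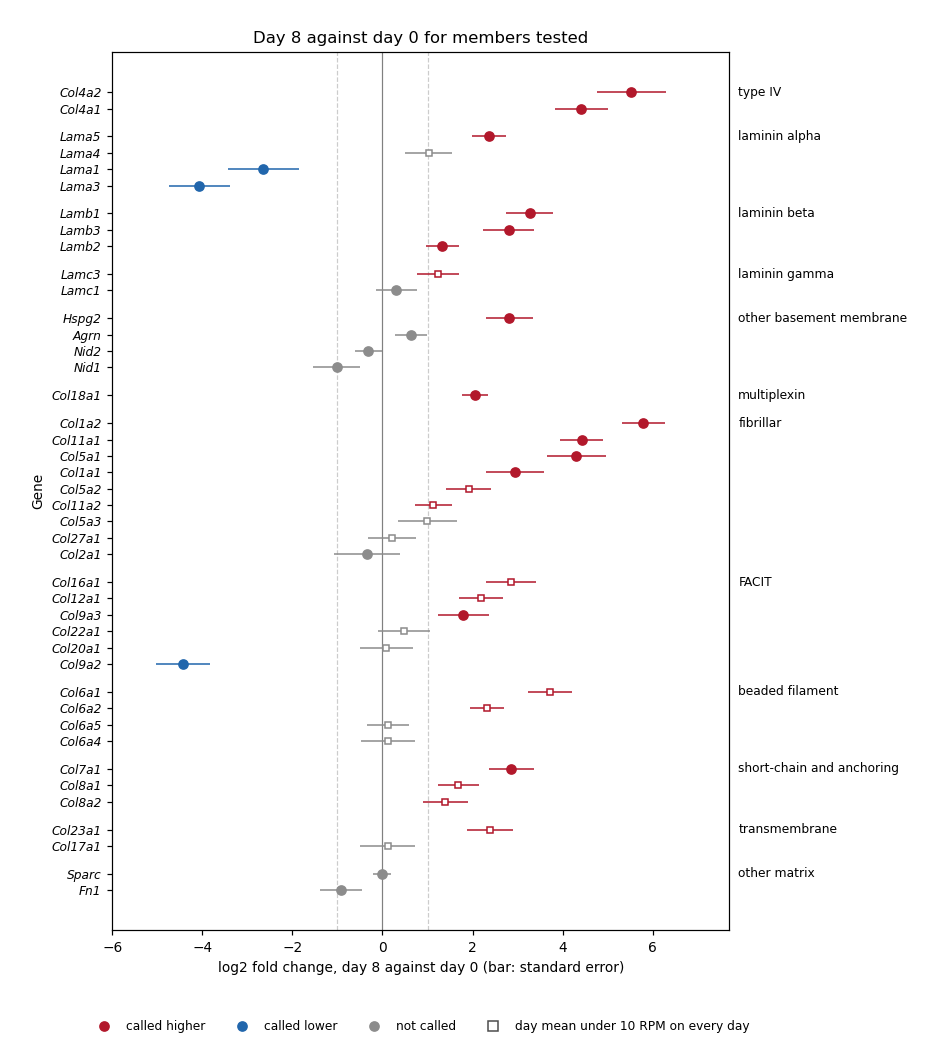
Fitted log2 fold change of day 8 against day 0 for 42 of the 43 members tested, with a bar of 1 standard error, in 12 groups by collagen type, laminin chain or protein class. Red points were called higher, blue lower and grey not called, and small open squares mark genes with a day mean under 10 RPM on every day. The 3 blue points are Lama1, Lama3 and Col9a2, and both type IV chains lie above 4.

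Genes that build, bind or cut this matrix were read from lists of collagen synthesis enzymes and chaperones, matrix receptors, and matrix proteases with their inhibitors. Their counts are for day 8 against day 0, where 23.9% of all genes tested were called higher and 11.1% lower. Of 27 synthesis genes tested, 10 were called higher and 1 lower on day 8 than on day 0. They included Bmp1, which cleaves procollagens, at 0.347 ± 0.443 RPM (SD, n = 4) at day 0 and 40.4 ± 6.1 at day 8 (log2 fold change 5.75, SE 0.51), and peroxidasin (Pxdn), which crosslinks type IV collagen, at 3.20 ± 3.02 and 144 ± 51 (5.73, SE 0.68). Loxl2, a crosslinking lysyl oxidase, changed by 5.22 (SE 0.43) and P4ha2, a prolyl hydroxylase subunit, by 4.52 (SE 0.42). Adjusted p-values of these 4 were at most 2.34e-08.

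Of 20 receptors tested, 11 were called higher and 2 lower on day 8, where 23.9% and 11.1% of all genes were. The collagen receptors Ddr1 and Ddr2 moved in opposite directions, Ddr1 from 12.5 ± 9.4 RPM (SD, n = 4) on day 0 to 230.0 ± 101.8 on day 8 (4.57, SE 0.43, adjusted p = 2.49e-10) and Ddr2 from 19.5 ± 12.4 to 0.251 ± 0.290 (-4.63, SE 0.72, adjusted p = 3.09e-06). The laminin receptor subunit Itga3 rose from 24.6 ± 13.3 to 258 ± 55 RPM (3.53, SE 0.40, adjusted p = 1.02e-08), and Itgb3 by 4.39 (SE 0.84, adjusted p = 7.15e-05). Of 13 proteases and inhibitors tested, 11 were higher and 1 lower, among them the inhibitor Timp2 (5.23, SE 0.59), the membrane protease Mmp14 (4.85, SE 0.70), the plasminogen activator Plat (3.82, SE 0.79) and the gelatinase Mmp2 (2.44, SE 0.78), with adjusted p of at most 0.0104. Median log2 fold changes on day 8 were 0.77, 1.38 and 2.351 for these lists against 0.23 for all genes tested.

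Markers of cell types that make such matrix were read in the same libraries, and their calls too stand beside 23.9% of all genes higher and 11.1% lower on day 8. Of 12 parietal endoderm markers 6 were called higher on day 8 and 0 lower, and their summed level ranged from 11.1 to 61.1 RPM on day 0, 11.2 to 28.7 on day 4 and 513 to 852 on day 8. Most of the day 8 sum was Krt19, a keratin, with 546 ± 160 RPM (SD, n = 4), and Dab2, Snai1 and Plat rose to 30.1 ± 11.8, 11.7 ± 3.6 and 18.6 ± 17 RPM. The defining factors Sox17, Gata6 and Gata4 stayed at or below 9.25 RPM in every library, with Gata6 at 0 on days 0, 1, 4, 5 and 6. Foxa2, an endoderm factor on the same list, had no read on days 0 to 5, a mean of 12.3 RPM on day 7 (4.28 to 29.2) and 9.51 on day 8 (1.74 to 17.5), and was called higher on day 8 (3.54, SE 0.56, adjusted p = 4.55e-06). This fold change of Foxa2 was fitted against the 0.9 of a read written for 0 reads on day 0. Of 12 fibroblast and mesenchyme markers 7 were tested and 3 called higher, Acta2, Pdgfrb and Postn (the last named after its values were seen), with a summed range of 75.03 to 195 RPM on day 0 and 92.4 to 174 on day 8. Prrx1, Lum and Fap had no read in any library. Of 8 endothelial markers 4 were tested, 2 (Pecam1 and Tek) were called lower and 0 higher, and their sum ranged from 54.5 to 181 RPM on day 0 and 2.38 to 33.8 on day 8. Most of the day 0 sum, 120.8 RPM in mean, was Pecam1, with 109.7 ± 48.58 RPM (SD, n = 4). Cdh5, on the same list, had reads on days 7 and 8 only and Kdr on day 8 only, each with a day mean under 10 RPM. All 10 naive pluripotency markers were called lower on day 8, the largest falls being those of Nr0b1 (-7.07), Prdm14 (-5.15), Esrrb (-4.1) and Nanog (-3.82). The part of these cell types in the changes of the members was not tested, and in RNA of whole cultures more cells of a type and more RNA per cell cannot be told apart.

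Libraries labelled double and single were compared over all days with day and line as covariates. Of the 43 members 1 was called, lower in double, where 0.944% of all genes tested were lower and 2.05% higher. An unadjusted p under 0.05 was found for 8 members, but the share of all genes under it was not computed. Lama1 was not called over all days, with a log2 difference, double minus single, of -0.84 (SE 0.34, adjusted p = 0.0899). Without day 0, where the X14 pair went against the order of its labels, it was called (-1.12, SE 0.32, adjusted p = 0.0106). Agrn had an adjusted p of 0.0296 at a difference of -0.44 (SE 0.14), short of the minimum of 1, and was higher in the library labelled single in 15 of 18 pairs of the same day and line. Lamb1 was higher in single in 16 of 18 pairs and Lama3 higher in double in 15 of 18, with adjusted p of 0.0758 and 0.059. Only 2 cultures carry each word, and the 9 days of a culture are not independent cultures.

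Between the lines X18 and X14, 0 of the 43 members were called in limma, where 0.00684% of all genes tested were called in each direction. An unadjusted p under 0.05 was found for 8 members, but the share of all genes under it was not computed. With voom on the recovered reads, another fit of the same libraries, 0 were called as well, where 1 of all genes tested was higher and 2 lower in X18. Each line has only 2 cultures, and the 9 days of a culture are not independent cultures.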

How the data were processed

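RNA of Xmas mESC cultures was measured by single-end RNA-seq in 36 libraries. Per the labels' processing notes and the study's methods, the authors trimmed reads, aligned them to mm10 with TopHat2 (version 2.0.12) or a related aligner and quantified genes in SeqMonk. The deposited values are log2 RPKM made by the authors, with 0 reads written as 0.9 of a read. The annotation version and use of strand are not given in the sources used here. Whole reads were recovered for all 25965 genes (100%, within 0.02 of a read).

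Genes with at least 1 RPM in at least 4 libraries were tested on the log2 scale with limma (version 3.58.1, R 4.3.3), two-sided, with day as the factor and Benjamini-Hochberg adjustment over 14612 genes. Voom on the recovered reads, other scalings and filters, a replicate block and left-out libraries were alternatives. Replicate numbers pair the libraries, since a number is 1 line and 1 label throughout by the sample titles. Deviations of same-numbered libraries from the day means correlated with a median r of 0.127 to 0.191 per number, with 20 to 28 of 36 pairs over 0.1, and both X14 libraries of day 0 correlated better with the other label of their line. In simulated data with 200 of 13599 genes changed on day 8, the fit recovered 75% of 4-fold changes. The changed genes were above 10 RPM on day 0 and the libraries were drawn independently. Members silent on day 0 and cultures sampled on every day were therefore not covered by the simulation. Members with a day mean of at least 10 RPM were named, with values by library for the 12 highest in RPKM and the highest of each group. From other lists up to 4 called genes with the largest change were named. Within-library ratios needed 10 reads of both genes in every library of a day. The members and lists were chosen with earlier results of these data known. Python 3.11.15, pandas 2.3.3, numpy 2.4.6 and matplotlib 3.10.9 were used. Values of 1 tested member are not reported here.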

Additional observations from a re-analysis of the deposited data

Results flagged for a closer look

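Of 101 groups of 4 libraries examined for members and ratios, 4 held a library far from the other 3, and chance flags about 1 in 20 groups. Col18a1 on day 6 had 128.1 RPKM in the replicate 4 library, below the 168.5 to 176.3 of the others. Lama5 on day 0 had 12.76 RPKM in the replicate 1 library, above 3.249 to 4.872 in the others, and its calls on days 4, 6 and 8 held without that library. Col9a2 on day 6 had 3.589 RPKM in the replicate 2 library, above 1.34 to 1.602. The Lama1 to Lama5 ratio on day 1 was 0.522 in the replicate 2 library, above 0.1586 to 0.2099.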

How the results depend on the processing

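Counts of members called on day 2 moved most, to 1 with voom on the recovered reads, to 0 with both days fitted alone and to between 0 and 12 when 1 replicate was left out. With a mean of at least 10 RPM required, 19 members were tested and 14 were called on day 6, 12 on day 8 and 9 between days 4 and 8, and 19 changed over the 9 days. Shares of all genes called under these alternatives are not given here, so the counts describe the members only. Leaving out 1 replicate gave 8 to 10 calls on day 4, 19 to 26 on day 6, 23 to 29 on day 8, 20 to 23 between days 4 and 8 and 32 to 37 over all days. Between double and single, 2 members were called with no minimum fold change, 0 with voom, 2 without day 0 and 0 to 1 without 1 replicate. The day 8 median of fibrillar collagens was 2.96 with voom, and that of laminin gamma chains 0.70 under quantile normalization, 2.09 with voom and 0.87 to 1.48 without 1 replicate. The cause of these shifts was not tested.

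With the replicate block 6, 11, 25 and 28 members were called on days 2, 4, 6 and 8, with 22 between days 4 and 8, 37 over all days, 1 between double and single and 0 between lines. The block added Lama5 on day 2 and 1 member on day 4, and changed no other call. For these counts too the share of all genes is not given here.

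Of the log2 fold changes of named members on day 8, 381 kept direction and side of the threshold, 9 lost and 4 gained a call, and 0 reversed. At these depths members under 3 reads a library could not be compared.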
